A study of Mus musculus with 267 samples.

Results

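The regions described here were the open chromatin regions of bone marrow-derived macrophages (BMDMs) from NOD/ShiLtJ (NOD) mice, and the question was where acetylation of histone H3 at lysine 27 (H3K27ac) differed after 24 h of interleukin-4 (IL-4). The members were all 68932 regions of the NOD table, each 1000 bp wide, read in 4 H3K27ac chromatin immunoprecipitation (ChIP-seq) libraries out of 267 samples in the series. Of the 4 libraries, 2 came from BMDMs given 20 ng/mL IL-4 for 24 h and 2 from untreated (basal) BMDMs of the same strain, with no engineered allele in either group. Bone marrow of female mice was grown into macrophages with the growth factor M-CSF in both groups, so the basal cells were unstimulated cultured macrophages and not cells of a tissue. The study's methods describe its replicates as biological without saying whether each came from its own mouse, so the tests below measure the spread between these libraries.

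H3K27ac is deposited by the acetyltransferases p300 and CBP on nucleosomes beside active promoters and enhancers, and its level at an enhancer tends to follow the activity of that enhancer. IL-4 binds a receptor that activates the kinases JAK1 and JAK3, which phosphorylate the transcription factor STAT6, and STAT6 dimers bind DNA at the palindrome TTC and GAA with free bases between. In macrophages this signal drives the alternatively activated state, with genes such as the arginine-consuming enzyme Arg1, and dampens inflammatory genes. Macrophage enhancers are opened by lineage factors such as PU.1 and C/EBP, with which signal-dependent factors then work.

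The sequences below are the central 200 bp of 5 regions where H3K27ac was higher at 24 h and of 2 where it was lower. They are shown because they carry the letters whose shares are compared further on, and they were chosen after the matches were known. They are the plus strand of the mm10 (GRCm38) reference, which is the C57BL/6J genome and not the NOD genome. Capitals mark the match to the motif named for each.
Msx3 (chr7:140051933-140052132, STAT6 letters): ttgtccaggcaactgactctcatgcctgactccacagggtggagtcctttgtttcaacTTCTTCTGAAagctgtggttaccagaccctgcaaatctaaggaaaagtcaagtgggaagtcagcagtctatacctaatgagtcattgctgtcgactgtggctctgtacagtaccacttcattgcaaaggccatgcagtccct
Mreg (chr1:71982768-71982967, STAT6 letters): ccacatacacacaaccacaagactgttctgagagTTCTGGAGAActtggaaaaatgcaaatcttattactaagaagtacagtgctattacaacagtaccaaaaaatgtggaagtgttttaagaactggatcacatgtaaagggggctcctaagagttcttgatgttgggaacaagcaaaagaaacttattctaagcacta
Nbas (chr12:13410298-13410497, STAT6 letters): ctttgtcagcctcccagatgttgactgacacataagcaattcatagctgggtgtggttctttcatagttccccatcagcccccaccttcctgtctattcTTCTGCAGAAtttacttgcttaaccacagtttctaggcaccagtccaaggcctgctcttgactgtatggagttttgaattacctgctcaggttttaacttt
Bhlhe40 (chr6:108569591-108569790, STAT6 letters): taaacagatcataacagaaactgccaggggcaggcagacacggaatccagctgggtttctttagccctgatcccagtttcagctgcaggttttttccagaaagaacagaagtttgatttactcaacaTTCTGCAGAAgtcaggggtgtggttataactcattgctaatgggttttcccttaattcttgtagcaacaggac
Tmem26 (chr10:68725562-68725761, AP-1 letters): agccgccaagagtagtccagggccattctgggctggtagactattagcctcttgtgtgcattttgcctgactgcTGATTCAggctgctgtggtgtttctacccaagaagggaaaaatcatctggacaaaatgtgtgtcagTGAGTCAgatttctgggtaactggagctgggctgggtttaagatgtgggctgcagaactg
Runx1 (chr16:93085559-93085758, C/EBP letters): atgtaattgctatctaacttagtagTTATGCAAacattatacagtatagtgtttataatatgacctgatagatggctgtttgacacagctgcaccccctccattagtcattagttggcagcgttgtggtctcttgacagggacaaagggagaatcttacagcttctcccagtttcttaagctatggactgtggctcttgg
Nfkbiz (chr16:55589488-55589687, PU.1 letters): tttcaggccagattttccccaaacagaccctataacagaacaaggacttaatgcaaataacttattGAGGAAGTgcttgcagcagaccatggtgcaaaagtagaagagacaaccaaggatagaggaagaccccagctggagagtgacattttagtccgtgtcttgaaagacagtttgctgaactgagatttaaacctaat
The motif letters searched, on either strand, were TTCNNNNGAA for STAT6, TGANTCA for AP-1, TTGCNNAA for C/EBP and GAGGAAGT for PU.1, where N is any base. The Tmem26 window held 2 AP-1 matches and no STAT6 match, and the Msx3 window held an AP-1 match besides its STAT6 match. The Nbas and Nfkbiz windows each also held a C/EBP match.

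Values are normalized tags, that is, reads in the region scaled by the authors to a library total of 10000000. The libraries held 12030820 and 12598074 tags in basal and 13825694 and 17766912 at 24 h. Of these, 63.0% and 60.5% lay in the regions in basal and 54.0% and 42.0% at 24 h, and the median region had 28.3 normalized tags in basal replicate 1 and 25.3 and 22.5 in the 24 h libraries. Across regions of at least 16 tags, Pearson's r of log2(tags + 1) was 0.83 between the basal libraries and 0.88 between the 24 h libraries, against 0.86 and 0.82 between basal and 24 h libraries of the same replicate number and 0.74 and 0.73 for the remaining pairs, so libraries of 1 replicate number were as alike as those of 1 group. The 11 regions of the mitochondrial genome summed to 208 and 86.5 normalized tags in basal and 1696 and 3256 at 24 h. All 8 macrophage markers examined had a region at their start that reached 16 tags, with summed tags of 3533 and 4746 in basal and 2882 and 2434 at 24 h. The 6 T cell and 5 mast cell or eosinophil markers had no region at their starts. The summed tags of 2 neutrophil markers were 414 and 127 in basal and 154 and 126 at 24 h. B cell markers summed to 63.2 and 58.7 in basal and 90.4 and 65.8 at 24 h, nearly all at Ms4a1. Endothelial markers summed to 55.7 and 16.7 in basal and 29.7 and 17.4 at 24 h, mostly at Kdr. No dendritic cell or fibroblast marker reached 16 tags at its start.

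A region was counted as higher or lower by the fold thresholds of the study's methods, applied to H3K27ac alone. The ratio of the 2 group means, each with 1 tag added, had to reach 2.5-fold, and 1 or both means had to reach 16 normalized tags. Of 44936 regions that reached 16 tags, 2231 (4.96%) were higher at 24 h and 3543 (7.88%) were lower. This rule uses no spread between replicates and is a count, not a test. Across the higher regions the median went from 10.1 normalized tags in basal to 48.2 at 24 h (median log2 fold 1.92), and 65.4% of them had a basal mean under 16. Across the lower regions the median went from 86.0 to 25.4 (median log2 fold -1.60). At least 10-fold differences were found at 184 higher regions and at 1 lower region. The rule itself sets part of this contrast, since a lower region had to have at least 16 tags in basal and a higher region could pass through its 24 h mean alone.

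The balance of higher and lower moved with the scaling. With libraries brought to a common median ratio across regions (median-ratio scaling), in place of the scaling by their totals, 3058 regions (6.81%) were higher and 2130 (4.74%) lower, so the higher share of these calls was 58.9% against 38.6% with the deposited scaling. All 2231 higher regions were among the 3058, and the 2130 were among the 3543 lower regions. The median log2 fold over regions of at least 16 tags was -0.40 with the deposited scaling and -0.18 with median-ratio scaling, and a log2 fold given below is to be read against that shift. The smaller share of tags in regions at 24 h moved with the lower count, and its part in that count was not tested. Single libraries also moved the counts: without 24 h replicate 1, 6559 regions were lower, and without basal replicate 1, 3364 were higher.

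Replicate libraries separated the groups at most of the counted regions. Both 24 h libraries lay above both basal libraries at 93.8% of the higher regions, against 11.7% of all regions of at least 16 tags. Both lay below at 90.1% of the lower regions, against 36.3% of all regions. The regions were counted from the means of these same 4 libraries. Much of this separation therefore follows from the rule and is no independent support. The regions lay nearest to the starts of 1301 genes (higher) and 1850 genes (lower), and 180 genes had regions in both sets. After merging regions that overlap each other, 2048 higher and 3226 lower stretches were left. Just inside the threshold was a region near Lpgat1, with mean tags of 28.5 in basal and 10.8 at 24 h, and just outside it one near Pfkfb3, with 42.5 and 16.4.

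Testing against the replicate error called far fewer regions. With limma on log2(normalized tags + 1), 39 regions (0.0566% of 68932) rose at a Benjamini-Hochberg adjusted p under 0.05. In the other direction limma called 0 regions (0%), where 3813 regions had an unadjusted p under 0.05 with a higher and 4765 with a lower value. On whole reads recovered from the deposited values, edgeR called 79 regions higher (0.115%) and 0 lower, and DESeq2 called 930 higher (1.90% of the 48882 it tested) and 287 lower (0.587%). All 39 limma calls were also called by DESeq2 and 37 by edgeR. With 1 library left out, 1 group held a single library, and limma took the replicate spread from the other group alone. The number of calls in such a fit therefore cannot show whether the rises depended on the library left out. Without either 24 h library the fitted log2 folds of the named limma calls stayed positive. With median-ratio scaling of all 4 libraries limma called 0 regions. The adjusted p of the named calls below is 0.0454 in each case.

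The 39 regions that rose lay near 33 genes. Of them 32 had a mean of under 16 tags in basal cells. In the study's accessibility peaks 27 were open at 24 h only, against 7857 of all 68932 regions. By annotation 34 were intronic or intergenic and 3 were promoters, against 53520 and 11459 of all 68932. Their limma log2 fold ran from 3.18 to 5.81 with a median of 4.49, or 4.46 with the 2 regions that had no basal read set to a floor of 3 reads over the group. Because so many started near 0, the fitted fold of these regions depends on the pseudocount. RNA polymerase II (Pol II), the enzyme that transcribes protein-coding genes, was also at least 2.5-fold higher at 36 of the 39.

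The largest fitted fold among them lay in an intron of Tmem26 (chr10:68725162-68726162), a transmembrane protein, 1.92 kb from its start. H3K27ac was 0.830 and 0 normalized tags in the basal libraries, which is 1 read in all, and 89.0 and 63.0 at 24 h. Pol II was 1.30 and 2.74 in basal and 175 and 136 at 24 h in the same region. Its fitted log2 fold of 5.81 ± 0.61 SE rests on the pseudocount, since basal cells gave almost no read. At the Tmem26 promoter H3K27ac was 13.3 and 5.56 in basal and 227 and 92.3 at 24 h (limma log2 fold 3.91 ± 0.65 SE, adjusted p = 0.0738).

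The smallest p-value belonged to an intergenic region 2.94 kb from the start of Msx3 (chr7:140051533-140052533), a homeobox transcription factor gene, which had 3.32 and 4.76 tags in basal and 267 and 167 at 24 h. Its limma log2 fold was 5.41 ± 0.56 SE, and all 5 Msx3 regions with at least 16 tags were higher at 24 h. The Msx3 promoter itself (chr7:140048749-140049749) rose from 1.66 and 0 tags to 70.9 and 40.0. Pol II at the intergenic region was 0 and 2.74 in basal and 89.3 and 57.4 at 24 h. The groups did not overlap in either mark, but for H3K27ac this follows largely from the choice of the region by its p-value.

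Other calls lay far from the nearest gene start. In an intron 141 kb from the start of Nbas (chr12:13409898-13410898), which encodes a factor of transport from the Golgi to the endoplasmic reticulum, H3K27ac rose from 2.49 and 0.790 tags to 124 and 108 (limma log2 fold 5.54 ± 0.60 SE). A region 229 kb from the start of Mreg (chr1:71982368-71983368), which encodes melanoregulin, a protein of melanosome and lysosome traffic, rose from 3.32 and 3.97 to 220 and 122 (5.15 ± 0.57 SE). A region 85.9 kb from the start of Mpp6 (chr6:50023835-50024835), which encodes a membrane scaffold protein, rose from 7.48 and 9.53 to 225 and 162 (4.34 ± 0.53 SE). The nearest start need not be the gene that such a region regulates, and no contact data were used here.

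Receptors and secreted proteins made up further calls. Near Gpr65 (chr12:98311268-98312268), a receptor that senses protons, H3K27ac was 5.82 and 8.73 tags in basal and 257 and 172 at 24 h. In an intron of Il31ra (chr13:112551288-112552288), the receptor subunit for interleukin-31, it was 3.32 and 0.790 in basal and 114 and 172 at 24 h. Beside Ang2 (chr14:51199103-51200103), a secreted ribonuclease of the angiogenin family, it was 34.1 and 36.5 in basal and 763 and 446 at 24 h, the highest 24 h level among the 10 calls with the smallest p. Ang2, Rnase2a and Ear14 belong to a cluster of closely similar ribonuclease genes on chromosome 14, so reads there may be shared between copies. A further call lay near Socs1, a feedback inhibitor of JAK and STAT signalling (6.65 and 3.97 tags in basal, 182 and 104 at 24 h). The limma log2 fold of that Socs1 region (chr16:10786530-10787530) was 4.49 ± 0.58 SE.

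**Figure D1:**
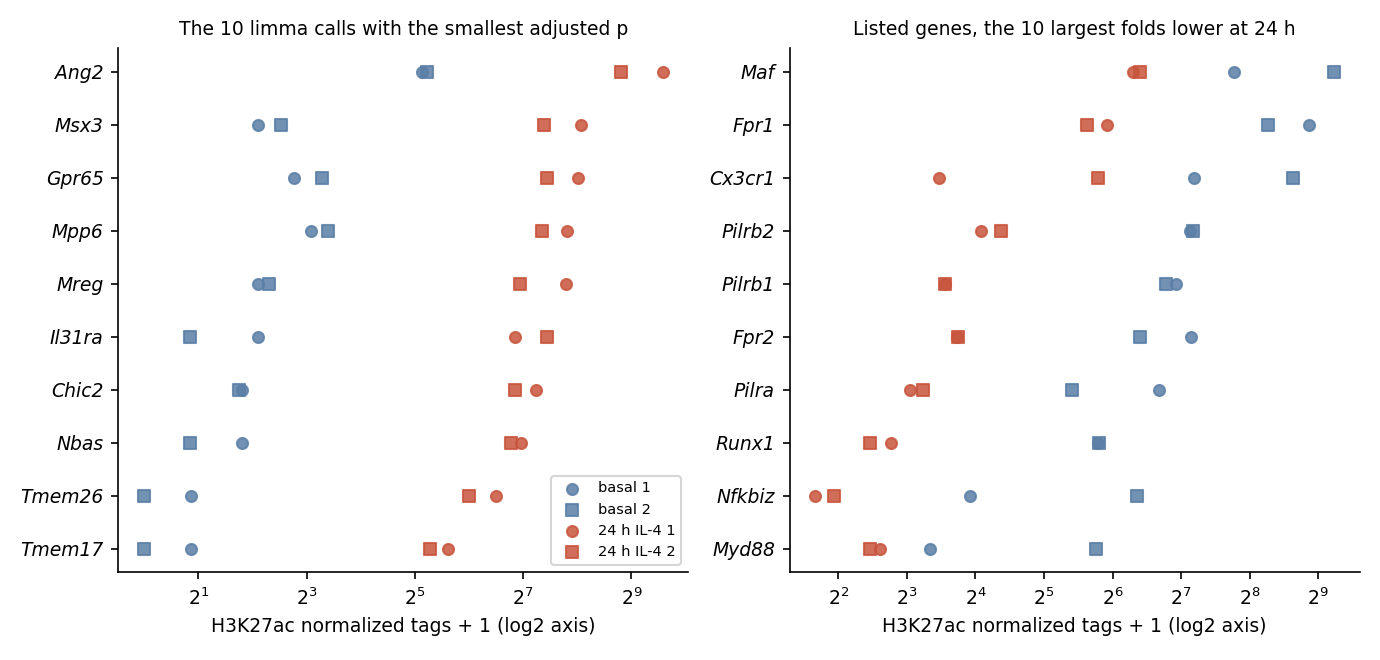
H3K27ac normalized tags plus 1, on a log2 axis, in each of the 2 basal (blue) and 2 24 h IL-4 libraries (red), at 10 regions that rose by limma (left, 1 per gene) and at the 10 listed genes with the largest fold lower at 24 h (right, none past limma). Groups did not overlap in any region shown, which largely follows from the choice of the regions on these same libraries. At the left the basal libraries sat mostly under 16 tags.

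Where the higher and lower regions lay was compared by the annotation of the table. Of 9894 promoter regions with at least 16 tags, 1.03% were higher and 1.63% lower, and of 32804 intronic or intergenic regions 6.19% were higher and 9.85% lower. Intronic and intergenic regions made up 91.0% of all higher and 91.2% of all lower regions. Taken over the 4 pairs of a single basal with a single 24 h library, the share of intronic or intergenic regions that were higher ran from 6.85% to 11.6% against 1.19% to 6.75% of promoters, and was the larger within each pair. For the lower direction the promoter counts ran from 115 of 9989 to 2193 of 9960, and in the pair of basal replicate 1 with 24 h replicate 2, which gave the latter, the promoter share exceeded the intronic or intergenic share of 20.2%. Without 24 h replicate 1 the promoter share lower was 9.09%, and without basal replicate 1 the promoter share higher was 2.57%. Intergenic regions had larger shares (7.05% higher, 11.7% lower) than introns (5.52% and 8.40%). By distance, 1.36% of regions within 1 kb of a gene start were higher and 1.99% lower, and 7.71% and 10.7% of those 50 to 100 kb away.

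Accessibility separated the directions more than position did. Each region carries the condition in which the study called it open by ATAC-seq, an assay of accessible DNA. Of 4137 regions open at 24 h only, 23.6% were higher and 2.56% lower. Among 7835 regions open in basal only, 2.07% were higher and 13.5% lower, and among 32964 open in both conditions 3.32% and 7.23%. In each of the 4 single-library pairs the regions open at 24 h only had a higher share of 22.4% to 29.8%, and those open in basal only a lower share of 10.2% to 25.9%. With median-ratio scaling the shares were 29.1% higher for regions open at 24 h only and 8.56% lower for those open in basal only. Nonetheless 49.0% of all higher and 67.3% of all lower regions were open in both conditions.

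**Figure D2:**
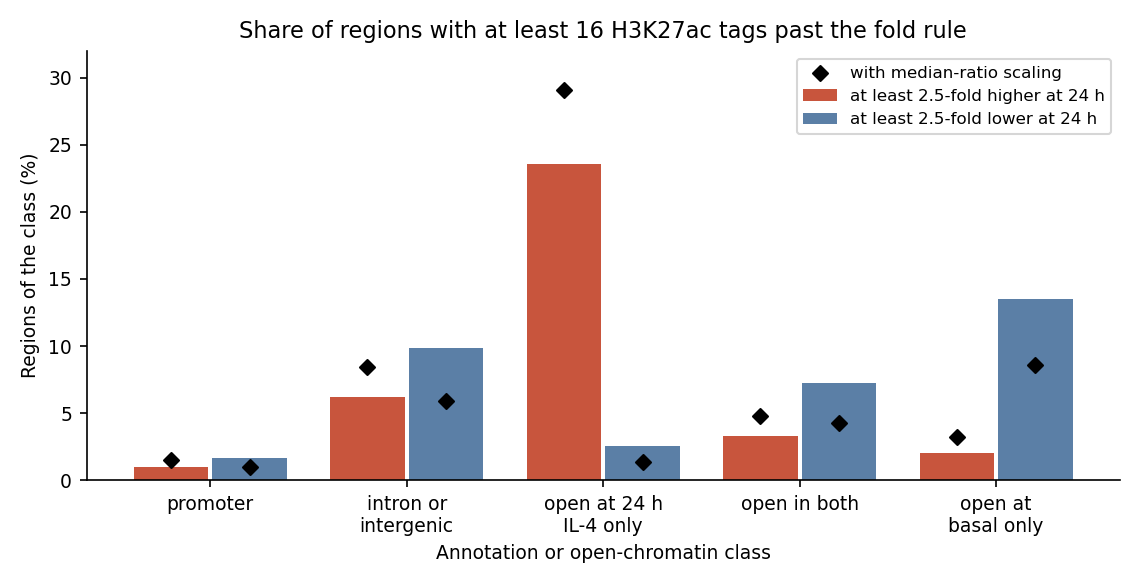
Percent of regions with at least 16 H3K27ac tags that were at least 2.5-fold higher (red bars) or lower (blue bars) at 24 h, by class, with diamonds for median-ratio scaling. Promoters had the smallest shares, and regions open at 24 h only the largest higher share (23.6%).

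Other marks were read in the same regions of NOD, 2 libraries per group each, and were not used to choose the regions. The median log2 fold of Pol II was 1.39 at the 1666 higher regions and -0.87 at the 2646 lower regions that passed the Pol II minimum of 8 tags in either group mean, against 0.04 at regions within 1.4-fold in H3K27ac. Pol II was at least 2.5-fold higher at 887 of the former (53.2%), against 1456 (3.74%) of all 38951 regions that reached both minima, so that 2.28% of these were higher in both marks. It was at least 2.5-fold lower at 556 of the 2646, against 785 (2.02%) of the 38951, and 1.43% were lower in both. The opposite direction in Pol II was found at 1 higher and 6 lower regions. The Pol II minimum kept 1666 of the 2231 higher and 2646 of the 3543 lower regions. A region with little Pol II in basal passed it only through its 24 h mean, and the reverse held for little Pol II at 24 h. The minimum thus favours regions that differ in Pol II, and these shares and medians hold only for regions that passed it. Without 24 h replicate 1 of both marks the count lower in both was 1535, and without basal replicate 2 it was 917.

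Dimethylation and trimethylation of histone H3 at lysine 4 (H3K4me2 and H3K4me3), marks of enhancers and promoters, differed less. Each was compared at regions with at least 16 tags of that mark in either group mean. The median log2 fold of H3K4me2 was 0.42 at the higher and -0.62 at the lower regions, against -0.33 at those within 1.4-fold. For H3K4me3 the medians were 0.62, -0.65 and -0.20. Only 326 of the 2231 higher regions reached the H3K4me3 minimum, against 780 of 3543 lower and 10923 of 19063 within 1.4-fold. Over all higher regions the median H3K4me3 was 1.77 tags in basal and 3.95 at 24 h. At least 2.5-fold higher H3K4me2 was found at 8.87% of the higher regions that reached its minimum, against 0.414% of all regions, and at least 2.5-fold lower H3K4me2 at 1.44% of the lower ones, against 0.150% of all. At the lower regions the median H3K4me2 was 51.0 tags in basal and 32.4 at 24 h.

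Binding of transcription factors was taken from the study's lists of reproducible NOD peaks, by whether a peak centre fell in the region. STAT6 peaks of the 24 h list lay in 59.2% of the higher and 38.1% of the lower regions, against 36.7% of all regions with at least 16 tags. STAT6 peaks of the basal list showed the opposite order, with 13.9% of higher and 58.6% of lower regions against 38.7% of all. Restricted to peaks present at 24 h and not in basal, 46.5% of the higher and 3.05% of the lower regions held one (all regions, 11.2%). Peaks of the basal list that were not in the 24 h list were found in 1.17% of higher and 23.5% of lower regions (all, 13.2%). Each list stands for a group of libraries and grows with their depth, so these shares carry no replicate error.

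The lineage factor PU.1 had a basal peak in 49.3% of the higher and 89.4% of the lower regions, and a 24 h peak in 79.7% and 88.9%, against 80.4% and 86.0% of all regions. C/EBPb, which shares macrophage enhancers with PU.1, had a basal peak in 15.7% of higher and 37.7% of lower regions (all, 28.9%), and a 24 h peak in 52.6% and 55.6% (all, 53.2%). Peaks of PPARg, a nuclear receptor of lipid metabolism, were in 62.4% of higher and 46.3% of lower regions at 24 h (all, 49.1%), and in 10.0% and 22.7% in basal (8534 of all 44936 regions). EGR2, a zinc finger factor of the IL-4 response, had a 24 h peak in 36.7% of higher but 6.38% of lower regions (all, 25.8%), and a basal peak in 41.6% and 16.2% (all, 36.0%). At regions within 1.4-fold in H3K27ac the EGR2 shares were 32.2% at 24 h and 42.8% in basal, near those of the higher regions. The EGR2 list held 25341 peaks in basal and 16604 at 24 h. Whether factors bound the same molecules was not tested.

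The shares of motif letters in the central 200 bp of the reference do not use the factor peak lists, although each window is centred on an accessibility peak. The STAT6 letters were found in 24.1% of higher, 3.05% of lower and 5.87% of all regions with at least 16 tags (5.34% of all 68932 regions), and in 23 of the 39 limma calls (59.0%). With a spacing of 3 free bases in place of 4 (TTCNNNGAA) the shares were 9.46%, 4.85% and 6.00% (5.91% of all 68932). Among 836 regions with the STAT6 letters and a STAT6 peak of the 24 h list only, 44.7% were higher and 0.478% lower. Where the letters were present without a peak in either list (715 regions), 6.71% were higher and 5.59% lower, and where such a peak had no letters (4196 regions), 15.8% and 2.48%. The Socs1 region that rose held no STAT6 peak in either list.

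Letters of other factors split in both directions. EGR letters (GNGTGGGNG) were in 16.5% of higher, 4.57% of lower and 8.89% of all regions of at least 16 tags (8.16% of all 68932). AP-1 letters were in 25.5% of higher, 17.4% of lower and 17.9% of all (16.9% of all 68932). In contrast PU.1 letters were in 8.07% of higher and 15.5% of lower regions (10.4% of all, and 10.8% of all 68932), and C/EBP letters in 12.4% and 16.1% (11.7% and 11.3%). NF-kB letters (GGGANTTTCC) were rare, in 0.403% of higher and 1.21% of lower regions (0.545% and 0.450%), and IRF letters (GAAANNGAAA) were in 2.06% and 4.12% (3.42% and 3.17%). KLF letters (GGGNGTGGC) were in 2.87% and 0.988% (3.31% and 2.91%). Since most called regions were intronic or intergenic, some of these orders turned within that class. There KLF letters were in 2.71% of higher and 2.21% of all regions, C/EBP letters in 263 of 2030 higher regions and 13.8% of all, and AP-1 letters in 17.9% of lower and 22.3% of all. STAT6 letters within that class were in 25.1% of higher, 3.07% of lower and 6.75% of all regions. EGR and KLF letters can overlap, since the EGR letters end and the KLF letters begin with GGGNG. A match is a description of the reference sequence, not a bound site.

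**Figure D3:**
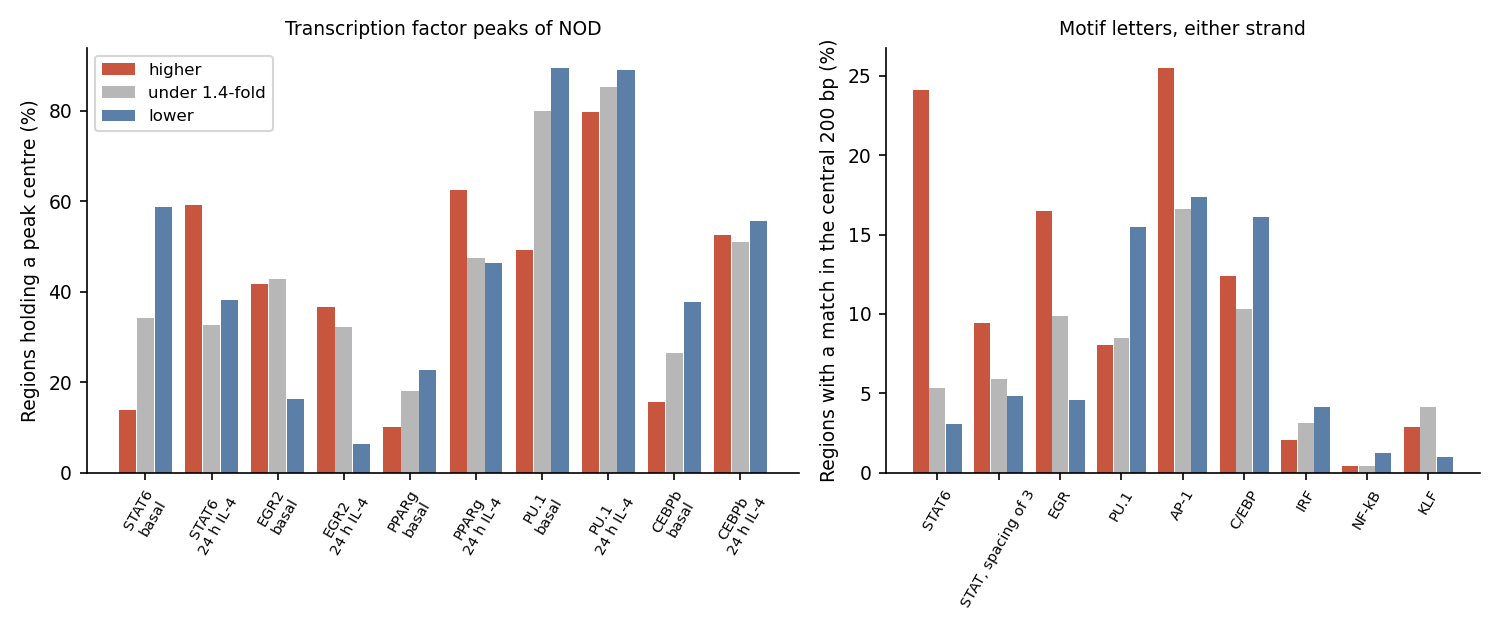
Percent of regions higher (red), within 1.4-fold (grey) or lower (blue) in H3K27ac that held a peak centre of each factor in NOD (left) or a match to motif letters in the central 200 bp (right). STAT6 shares were largest at higher regions for the 24 h peaks and the letters, and at lower regions for the basal peaks.

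Genes with many higher regions formed clusters. Bhlhe40, a basic helix-loop-helix repressor, had 19 higher regions of 32 with at least 16 tags, spread over 266 kb, and 0 lower. Its summed tags over these 19 were 712 and 343 in basal and 2379 and 2276 at 24 h. At the region with its largest fold (chr6:108569191-108570191, 90.9 kb from the start) H3K27ac was 22.4 and 6.35 tags in basal and 156 and 149 at 24 h (limma log2 fold 3.54 ± 0.64 SE, adjusted p = 0.0898). Mreg followed with 11 higher regions of 19 and 1 lower, and Ado, a dioxygenase of thiol compounds beside Egr2, with 9 of 31. Socs1 had 9 of 13 higher, with summed tags of 182 and 69.1 in basal and 1245 and 581 at 24 h. Rnase2a, an eosinophil-associated ribonuclease, had all 8 of its regions higher. Mad1l1 (a mitotic checkpoint protein) had 8 of 14, Inpp5a (an inositol phosphatase) 8 of 13, Klf4 8 of 34 and Mpp6 8 of 10. Traf5 (an adaptor of tumor necrosis factor receptors) had 7 of 13.

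Klf4, a zinc finger factor of alternative activation, combined both directions. Among its 34 regions 8 were higher and 3 lower, the lower ones being over 400 kb from the start on one side and the higher ones nearer. At 34.8 kb from the start (chr4:55566767-55567767) H3K27ac was 9.14 and 3.18 tags in basal and 106 and 97.9 at 24 h (limma log2 fold 3.98 ± 0.61 SE, adjusted p = 0.0538). The single region within 1 kb of the Klf4 start did not pass the fold rule.

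Maf led the lower direction. It encodes c-Maf, a leucine zipper factor of macrophage identity, and had 22 lower regions of 42, spread over 344 kb, with 0 higher. Their summed tags were 2759 and 4703 in basal and 1352 and 992 at 24 h, and 16 of the 22 were also lower with median-ratio scaling. At the region with the largest fold (chr8:115596831-115597831) H3K27ac was 217 and 599 in basal and 77.4 and 83.9 at 24 h (limma log2 fold -2.15 ± 0.54 SE, adjusted p = 0.191). All lower Maf regions lay 56.7 kb or more from its start, and the region nearest the start had 351 and 335 tags in basal and 280 and 189 at 24 h. The 2 basal libraries were far apart at the distal region and close at the start.

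Nfkbiz, which encodes the nuclear inhibitor I kappa B zeta of the NF-kB system, had 14 of 18 regions lower. Their summed tags were 1290 and 2227 in basal and 430 and 375 at 24 h. The region 233 kb from its start (chr16:55589088-55590088) had 14.1 and 81.0 tags in basal and 2.17 and 2.81 at 24 h, with limma log2 fold -3.34 ± 0.79 SE and adjusted p = 0.174. The basal replicates there were themselves far apart, and both were above the 24 h libraries. At the Nfkbiz start H3K27ac was 356 and 241 in basal and 174 and 83.9 at 24 h.

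Further genes with many lower regions included a kinase, cytoskeletal and transcription genes. Lyn, a Src family kinase, had 12 of 20 lower, with summed tags of 2611 and 3266 in basal and 962 and 835 at 24 h. Stk17b, a serine and threonine kinase, had 10 of 13 lower (2377 and 2450 in basal, 533 and 596 at 24 h), and all 10 were lower with median-ratio scaling as well. Trps1 (a GATA-type repressor) had 13 of 26 lower and Bmf (a cell death promoter of the BCL2 family) 13 of 14. Prex1 (an exchange factor for Rac) had 12 of 34, Nfatc2 11 of 20 and Coro6 10 of 11. Adgrl2 had 11 of 36 lower and 1 higher. None of these regions was called by limma. Summed tags of each of these 10 genes were lower in both 24 h libraries than in either basal library. The sums cover only regions counted as lower from these same libraries. Their order is therefore largely set by that choice and gives no independent support.

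**Figure D4:**
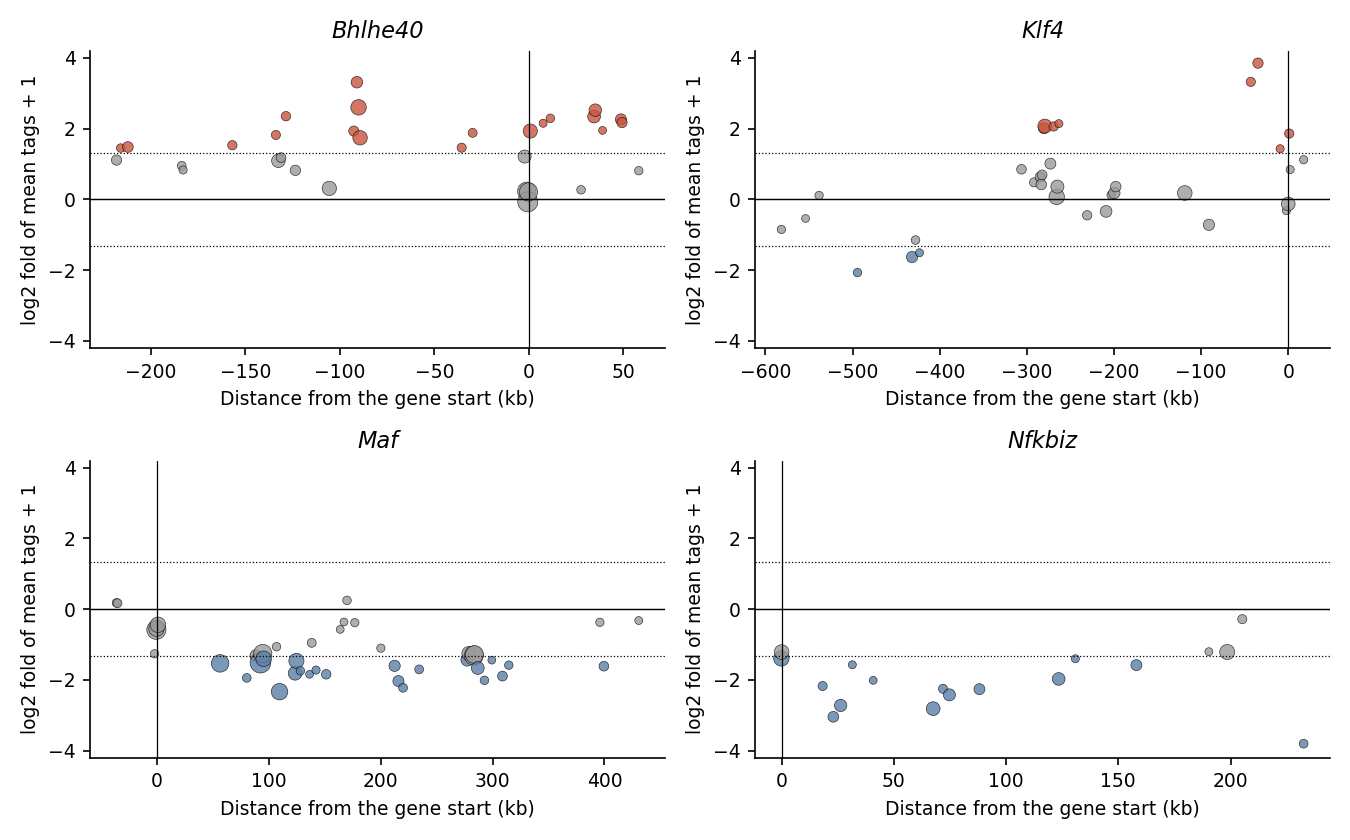
Log2 fold of mean H3K27ac tags plus 1 (24 h over basal) at every region with at least 16 tags near Bhlhe40, Klf4, Maf and Nfkbiz, against distance from the gene start in kb. Red points are at least 2.5-fold higher, blue at least 2.5-fold lower (dotted lines mark the threshold), and point area grows with the mean tags of the higher group. Bhlhe40 had 19 red points and Maf 22 blue ones.

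Gene lists were then examined, each region counted with its nearest gene start and read against 4.96% higher and 7.88% lower of all regions. The lists were chosen with earlier results of these data known, so their shares are a description and no independent evidence. Arg1, Slc7a2 and Mmp12 in the alternative activation list and Egr2 among the transcription factors are also examples of the study. Among genes that carry out alternative activation, 43 of 129 regions with at least 16 tags (33.3%) were higher and 3 (2.33%) lower, with a median log2 fold of 0.66 against -0.40 over all regions. The higher regions belonged to 13 of the 22 genes with such a region. All 5 regions of Arg1 and all 5 of Cdh1 (E-cadherin) were higher, as were all 4 of Mgl2 (a lectin), all 4 of Matk and all 3 of Slc7a2 (a transporter of cationic amino acids). No region of Mrc1, Clec10a, Il1rn or Cd274 passed the rule. Alox15, a lipoxygenase, had 2 of 3 regions lower.

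At the Slc7a2 promoter (chr8:40861846-40862846) H3K27ac was 74.0 and 19.8 tags in basal and 691 and 275 at 24 h (limma log2 fold 3.47 ± 0.68 SE, adjusted p = 0.108). Arg1 had 3.32 and 3.18 tags in basal and 53.5 and 36.0 at 24 h at its region 25.4 kb from the start (chr10:24901614-24902614), with limma log2 fold 3.40 ± 0.57 SE and adjusted p = 0.077. At the start of Flt1, a receptor for vascular endothelial growth factor, the tags were 4.16 and 1.59 in basal and 57.1 and 58.5 at 24 h (limma log2 fold 4.01 ± 0.60 SE, limma adjusted p = 0.0538). None of the 3 passed limma. In each the groups did not overlap, which largely follows from the fold rule that the regions had passed on these same libraries. Chil4, a chitinase-like protein, had 6.65 and 6.35 in basal and 67.3 and 62.5 at 24 h, with near copies in the genome that may share its reads.

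The transcription factors of the IL-4 response had 54 of 203 regions higher (26.6%) and 15 lower (7.39%), with a median log2 fold of 0.29. Batf3 had 7 of 12 regions higher, Irf4 6 of 11, Myc 5 of 40 and Egr2 4 of 6, besides Bhlhe40 and Klf4. Within the first intron of Egr2, at the start of the gene (chr10:67538502-67539502), H3K27ac had a mean of 23.5 tags in basal and was 146 and 143 at 24 h (limma log2 fold 2.59 ± 0.51 SE, adjusted p = 0.109). Egr1 had 2 regions higher and 3 lower of 9, and Egr3 had 3 lower of 11 and none higher. Rxra, the partner of PPARg, had 5 of 14 lower, and Pparg itself 2 of 15 higher.

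The IL-4 receptor pathway list had regions in both directions. Of its 112 regions 16 (14.3%) were higher and 10 (8.93%) lower, the latter a share close to that of all regions. The higher regions were near the inhibitors Socs1 (9), Cish (3) and Socs2 (2) and the adaptor Irs2 (2). The lower ones were near Stat6, Socs3 and Il13ra1 (2 each) and Ptpn1, Ptpn6, Il4ra and Irs2 (1 each). At Stat6 the region 7.68 kb from the start (chr10:127634805-127635805) had 182 and 238 tags in basal and 73.8 and 43.3 at 24 h (limma log2 fold -1.86 ± 0.50 SE, adjusted p = 0.208). At the Socs1 start the tags were 328 and 160 in basal and 816 and 381 at 24 h, a fold of 2.44, just short of the threshold. The median log2 fold of the list was -0.50, below that of all regions, although more of its regions were higher than lower.

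Several lists of immune genes had larger lower than higher shares. Among Toll-like receptor and NF-kB genes 43 of 181 regions (23.8%) were lower and 6 (3.31%) higher, with a median log2 fold of -0.62. These 43 belonged to 9 of 30 genes: Nfkbiz (14), Tlr2 (all 9 of 9), Cd14, Cxcl1 and Cxcl2 (4 each), Tlr7 (3), Nfkb1 and Tlr9 (2 each) and Myd88 (1). The 6 higher regions were near Rel and Nfkb1 (2 each) and Tnfaip3 and Ccl2 (1 each), so Nfkb1 had regions in both directions. At the Tlr2 promoter (chr3:83841161-83842161) the tags were 242 and 172 in basal and 65.8 and 29.3 at 24 h (limma log2 fold -2.19 ± 0.54 SE, adjusted p = 0.188). Cd14, the coreceptor for lipopolysaccharide, had 747 and 664 in basal and 210 and 141 at 24 h in an exonic region (chr18:36725080-36726080, 1.22 kb from the start). In contrast, regions of Tlr4, Tnf, Il6, Nos2, Nfkbia and Il1b did not pass the rule in either direction.

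Receptors for chemoattractants had 19 of 102 regions lower (18.6%) and 2 higher (1.96%). All 7 regions of the fractalkine receptor gene Cx3cr1, all 7 of Fpr2 and all 3 of Fpr1, receptors for formyl peptides, were lower. At the Fpr2 start (chr17:17887578-17888578) H3K27ac was 141 and 83.3 in basal and 12.3 and 12.4 at 24 h, 8.50-fold lower (limma log2 fold -3.04 ± 0.55 SE, adjusted p = 0.0908). Cx3cr1 had 145 and 398 in basal and 10.1 and 54.0 at 24 h near its start (chr9:120068408-120069408), where the replicates of each group were far apart. No region of Ccr1, Ccr2 or Ccr3 passed the rule.

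Fc, lectin, TREM and scavenger receptors had 24 of 94 regions lower (25.5%) and 7 higher (7.45%), with a median log2 fold of -0.82. All 8 regions of Pilra and all 3 each of Pilrb1 and Pilrb2 with at least 16 tags, a family of paired inhibitory and activating receptors, were lower. At the Pilrb1 promoter (chr5:137857542-137858542) the tags were 121 and 109 in basal and 10.8 and 10.7 at 24 h, 9.86-fold lower (limma log2 fold -3.30 ± 0.52 SE, adjusted p = 0.0641), the smallest adjusted p in the lower direction. Pilrb1 and Pilrb2 are close copies, as are Fpr1 and Fpr2 in part, so reads may be shared between them. The 7 higher regions all belonged to Fcgr2b, the inhibitory Fc receptor, which had 6.65 and 15.9 tags in basal and 69.4 and 74.3 at 24 h in an intron 12.8 kb from its start.

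Macrophage lineage genes had 32 of 237 regions lower (13.5%) and 7 higher (2.95%), of which Maf held 22 and Runx1 8 of those lower. A region 260 kb from the start of Runx1 (chr16:93085159-93086159), a factor of blood cell development, had 54.0 and 54.8 tags in basal and 5.79 and 4.50 at 24 h (limma log2 fold -3.18 ± 0.55 SE, adjusted p = 0.0837), and 3 other Runx1 regions were higher. No region of Cebpa, Irf8, Adgre1, Cd68, Mitf or Tfec passed the rule. In the remaining lists few regions passed. Interferon-stimulated genes had 0 higher and 2 lower of 44 regions, MHC class II and costimulation genes 1 and 2 of 41, and housekeeping genes 1 and 0 of 38. PPARg and LXR lipid genes had 8 higher and 5 lower of 120, with 4 of the higher at the cholesterol exporter gene Abcg1, and lysosome genes 5 and 5 of 123, both directions occurring at Atp6v0d2, a subunit of the proton pump. In 10 genes that the study uses as examples, chosen on these samples and so no independent evidence, 20 of 60 regions were higher and 0 lower.

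**Figure D5:**
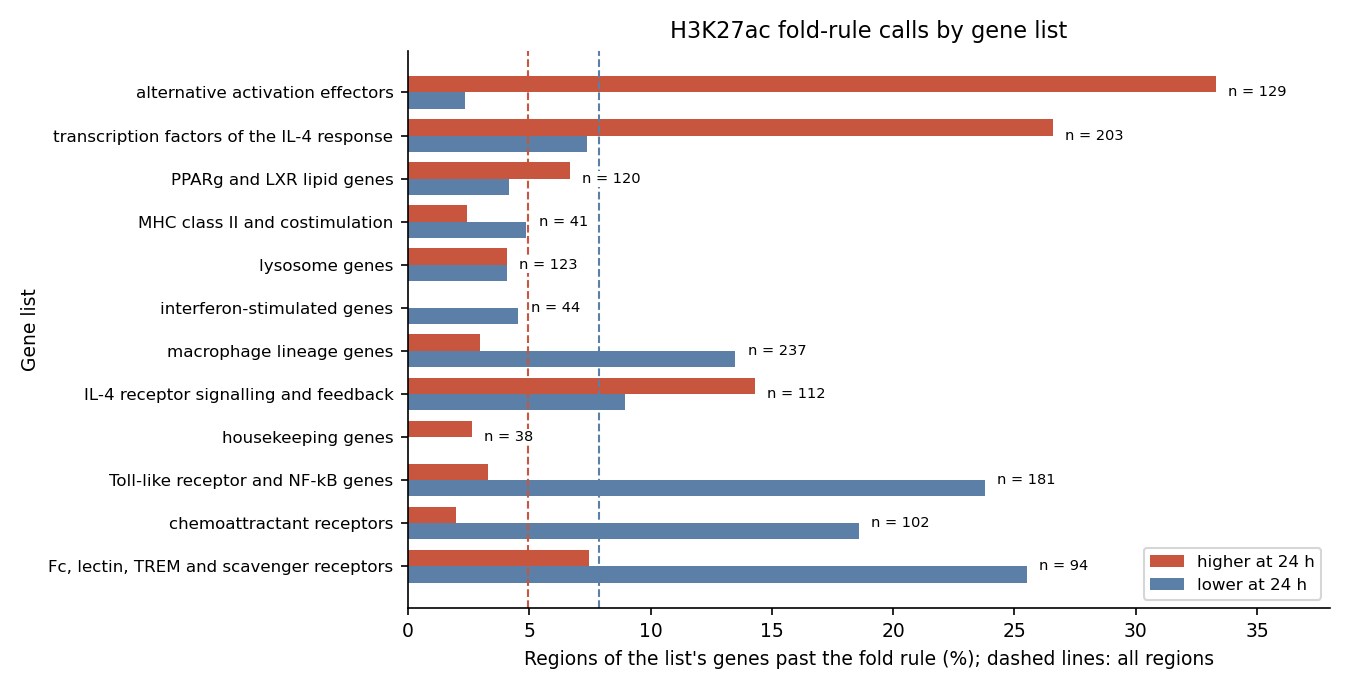
Percent of the regions with at least 16 H3K27ac tags of each gene list that were at least 2.5-fold higher (red) or lower (blue) at 24 h, with the number of regions (n) and dashed lines at 4.96% and 7.88% for all regions. Alternative activation genes had 33.3% higher, and Fc, lectin, TREM and scavenger receptors 25.5% lower.

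Over all genes, few gene starts passed the rule. Of 9352 genes with a region within 1 kb of the start that reached 16 tags, 112 were higher and 136 lower there, with a median log2 fold of -0.32. Of the 15 alternative activation genes with such a region 5 were higher at the start and 0 lower, and of the 17 receptor genes of the Fc, lectin, TREM and scavenger list 0 were higher and 6 lower. With median-ratio scaling the alternative activation list had 51 higher and 2 lower regions and the Toll-like receptor and NF-kB list 10 and 32, and the signs of both medians were the same as above (0.85 and -0.42). That scaling moved the medians of the lysosome and of the PPARg and LXR lists from -0.20 and -0.18 to 0.02 and 0.04.

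Some of the largest differences in tags lay in repetitive DNA. Of the 10 regions with the largest rise of mean tags, 1 per gene, 4 lay at Gm10800, Gm10801, Chl1 and near Rpusd4. At Gm10800 (chr2:98666635-98667635) the tags were 9311 and 7773 in basal and 16614 and 30425 at 24 h, and 76.6% of the region is marked as repeat in the assembly, against a median of 13.7% for regions of at least 16 tags. These regions and all 11 mitochondrial regions were higher in both 24 h libraries, most in replicate 2, the library with the smallest share of tags in regions. The other 6 were near Ang2, Rnase2a, Rars, Slc7a2, Rnf19b and F10. In the region near Rars (chr11:35837402-35838402) H3K27ac was 74.0 and 69.1 in basal and 704 and 495 at 24 h (limma log2 fold 3.03, adjusted p = 0.0501). Among the 10 largest decreases of mean tags were regions near Nlrp3, the inflammasome sensor (1064 and 633 in basal, 399 and 195 at 24 h), Cd14, Il10ra and Ifnar2. These are examples, and no shared theme of the 10 was examined. None of the 10 passed limma.

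The same regions were looked up in the tables of the other strains, matched within 500 bp of the centre. These tables were normalized separately and no difference between strains was tested. In C57 72.5% of 1617 matched NOD-higher regions were also higher by the fold rule, against 4.37% of all matched regions. The shares were 60.9% of 1728 in BALB, 47.9% of 1564 in PWK and 39.2% of 1139 in SPRET, against 3.31%, 2.93% and 2.47%. Of NOD-lower regions 68.2% were also lower in C57, 53.9% in BALB, 32.6% in PWK and 11.3% in SPRET, against 12.1%, 6.61%, 4.01% and 1.27% of all matched regions. Of the 39 limma calls 14 were matched in all 4 other strains, and 13 of these were at least 2.5-fold higher in each. The Nbas region had log2 folds of 5.41 in C57, 4.21 in BALB, 6.64 in PWK and 4.75 in SPRET. The Msx3 intergenic region had 4.57 in C57, 5.06 in BALB and 0.97 in PWK.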

How the data were processed

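H3K27ac ChIP-seq of NOD BMDMs was analysed for 2 basal and 2 24 h IL-4 libraries, grouped by their labels. According to the methods, single-end reads were aligned by the authors to the NOD genome and shifted to mm10. The authors merged reproducible ATAC-seq peaks of both conditions into regions, and counted tags with HOMER. The deposited values are signal, that is, tags per 1000 bp region scaled by the authors to 10000000 tags per library, with the library totals in the file headers. Multiplied back by these totals, 100% of values were whole reads within 0.02 read. The deposited factor peak lists hold 1 reproducible list per group, of which only peak positions were used, so no peak height, p-value or score entered.

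The members and gene lists were chosen with earlier results of these data known. The fold rule used a pseudocount of 1, a minimum of 16 tags (8 for Pol II) and 2.5-fold. limma 3.58.1 (lmFit, eBayes with trend) was run on log2(tags + 1) over all 68932 regions with Benjamini-Hochberg adjustment, in R 4.3.3. edgeR 4.0.16 (quasi-likelihood) and DESeq2 1.42.0 on the recovered reads were alternatives. Named were the 10 genes with the most higher and the 10 with the most lower regions (ties by summed change of tags), the 10 regions with the largest rise and fall of tags and the 10 limma calls with the smallest adjusted p (1 region per gene), and for listed genes the region nearest the start and that with the largest fold. Regions were assigned to the nearest gene start of the mm10 annotation, and motif letters were searched in the mm10 reference. Tests measure the spread between 2 libraries per group. Alternatives were another pseudocount, filter, fold and scaling, each library left out, and the replicate block.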

Additional observations from a re-analysis of the deposited data

How the results depend on the processing

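With 2 libraries per group, counts moved with the settings. Of 146 named regions none changed sign with a pseudocount of 5, median-ratio scaling or any library left out. They were mostly regions past the 2.5-fold rule in these same libraries, so a change of sign was unlikely from the start. All 15 limma calls among them were lost with median-ratio scaling, and the other 131, not called in the main fit, stayed uncalled. With median-ratio scaling the folds of these 15 were slightly larger (Mreg from 5.15 to 5.35 on the log2 scale) and their adjusted p was 0.0518 by limma. Without basal replicate 1, 63 named regions gained a call, and without basal replicate 2, 51. Past the fold rule, 4254 regions were higher with no filter and 1480 with a minimum of 32 tags, and 7262 were lower at 2-fold and 2130 with median-ratio scaling. Higher in both H3K27ac and Pol II were 543 regions with a pseudocount of 5 and 1482 at 2-fold, and lower in both were 223 and 1519. At 2-fold, 8.99% of intronic and intergenic regions were higher and 19.7% lower. limma called 78 regions higher with a pseudocount of 5, 114 with a minimum of 16 tags and 0 with median-ratio scaling, against 79 by edgeR and 930 by DESeq2, and 5 lower with the minimum of 16 tags (fewer regions tested) against 287 by DESeq2. Leaving out 1 library gave 2409 to 3364 higher and 3808 to 6559 lower regions, 993 to 1247 higher and 501 to 1535 lower in both marks, promoter shares of 0.914% to 2.57% higher and 1.49% to 9.09% lower, intronic and intergenic shares of 6.42% to 9.07% higher and 10.2% to 16.2% lower, and 0 to 1160 limma calls higher and 0 to 587 lower. In those limma fits 1 group has a single library, which is assumed to vary like the other group. The cause of these shifts was not tested.

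With the replicate number as a block (replicate block), limma called 4458 regions higher and 9281 lower. Deviations of same-numbered libraries from their group means correlated at 0.70 over regions, with 2 pairs, and the labels do not say that a number marks a shared animal or day, so the libraries share only a number. Depth limits low regions: 51 of the higher regions had 1 to 3 basal reads and 2 had none, so their fitted folds depend on the pseudocount.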
